A study of Rattus norvegicus with 9 samples.

Results

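Serine, glycine, asparagine and mitochondrial one-carbon synthesis genes and stress genes that lie downstream of the transcription factor ATF4 were examined as a set of 10 genes, taken by name from a gene expression table of rat osteoblasts. The set held Phgdh, Psat1 and Psph, Asns, Shmt2 and Mthfd2, and Chac1, Trib3, Ddit4 and Sesn2. All 10 were found among the 19085 genes of the table, each under a single identifier, and all 10 passed the filter on low counts, which left 13256 genes to be tested. The cells were first-passage primary osteoblasts taken from male Sprague-Dawley rats at an age of 24 hours (skull vault, or calvaria), although the sample labels name the knee as their tissue. All groups received osteogenic induction medium for 7 days (dexamethasone at 1e-07 M, ascorbic acid at 50 μg/mL, β-glycerophosphate at 10 mM and serum at 10%), and 3 libraries were sequenced from each of 3 groups. The Control group received this medium alone, the Thrombin group received 20 U/mL thrombin in addition, and the PD03 group received 20 U/mL thrombin together with PD03 (PD0325901), which blocks the kinase MEK. The PD03 concentration is given as 0.1 μM for this experiment, whereas a protocol in the labels writes 0.1 mM for short treatments. No group received PD03 without thrombin, so an effect of the inhibitor on its own cannot be told apart from an effect on the thrombin response.

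ATF4 is translated more when kinases phosphorylate the initiation factor eIF2α during amino acid shortage, endoplasmic reticulum stress or other strain, and it can also be raised downstream of growth factor and mTORC1 signalling. It switches on genes that make, import and charge amino acids, together with genes that feed back on the stress itself. In osteoblasts, ATF4 is known as a regulator of terminal differentiation and of the amino acid supply for collagen, a protein rich in glycine and proline. Serine is made from a glycolytic intermediate by Phgdh, Psat1 and Psph in turn, and Shmt2 and Mthfd2 then draw glycine and one-carbon units from serine inside mitochondria.

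Total counts lay between 15447832 and 19841468 per library. Col1a1, the main collagen gene, took 4.18% to 5.05% of the counts in the Control and Thrombin libraries and 6.78% to 6.96% in the PD03 libraries. The osteoblast label was checked against marker genes: Col1a1, Col1a2 and Sparc were abundant and Runx2 and Spp1 were detected, but the late markers Bglap and Ibsp were close to absent, with 1 to 5 and 0 to 1 counts per library. Alpl, an early osteoblast enzyme, had 19 to 41 counts in the Control libraries, 6 in each Thrombin library and 46 to 62 in the PD03 libraries. Of the 8 tested genes in the osteoblast list of 10, 4 rose and 4 fell with thrombin by edgeR, DESeq2 or limma voom. The shares of all tested genes were 14.1% and 14.6%. Runx2 and Sp7 were among the 4 that rose, and both calls were lost on FPKM with 0.1 added. With PD03 against Thrombin 4 of the 8 rose and 3 fell, beside 25.3% and 24.5% of all tested genes. For the inhibitor, a list of 10 MEK-ERK output genes was read. All 10 fell in PD03 against Thrombin at an adjusted p under 0.05 by edgeR (9 by DESeq2). Of all tested genes, 24.5% fell there. The summed level of the 10 was 620 to 721 CPM in Control, 526 to 678 CPM in Thrombin and 159 to 184 CPM in PD03. With thrombin 2 of the 10 rose and 4 fell (median log2 fold change -0.12), beside 14.1% and 14.6% of all tested genes.

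A composite element bound by ATF4 together with C/EBP proteins can be written TGATGNAA. This string was searched on both strands of the 250 bases before the annotated start of each gene, because a match shows where such an element is spelled out near a member. The promoter sequences came from RefSeq on the rat assembly GRCr8, which is not the assembly of the count table. All 10 members had such a window, and 2 of them, Chac1 and Trib3, held a match, beside 1139 of 33469 windows over all genes (3.4%). In the stretches below the match is in capitals. It reads on the strand opposite to the gene in both, and lies 167 to 160 bases before the start of Chac1 (chr3:126795904-126796031, plus strand) and 21 to 14 bases before the start of Trib3 (chr3:161275534-161275614, minus strand).
Chac1: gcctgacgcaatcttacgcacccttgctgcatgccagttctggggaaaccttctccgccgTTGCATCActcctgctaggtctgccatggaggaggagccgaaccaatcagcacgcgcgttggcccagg
Trib3: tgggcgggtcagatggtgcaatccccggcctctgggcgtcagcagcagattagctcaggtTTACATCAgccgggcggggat
A match is a string of letters and not a measured site, and the absence of these letters from the windows of the other 8 members gives no information on binding.

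Summed over the 10 members, the Thrombin libraries held more of these transcripts than the Control libraries, and the PD03 libraries held fewer than either. This does not hold for each member. The members' share of all counts was 0.0464% to 0.0481% in Control, 0.0550% to 0.0574% in Thrombin and 0.0343% to 0.0351% in PD03. That share is of library totals without TMM scaling, and it includes the shift given below for library totals. At an adjusted p under 0.05 (edgeR quasi-likelihood test, Benjamini-Hochberg over all tested genes), 6 members rose with thrombin (Psat1, Asns, Shmt2, Mthfd2, Trib3 and Ddit4) and 1 fell (Sesn2), where 14.1% of all tested genes rose and 14.6% fell. In PD03 against Thrombin, 6 members fell (Phgdh, Psat1, Asns, Shmt2, Mthfd2 and Ddit4) and none rose, beside 24.5% of all tested genes that fell and 25.3% that rose. In PD03 against Control, 6 fell (Phgdh, Psat1, Asns, Shmt2, Ddit4 and Sesn2) and Chac1 alone rose, beside 20.2% and 19.7% of all genes. DESeq2 and limma voom called the same members as edgeR in each comparison and direction. In either direction 28.7%, 49.8% and 39.9% of all tested genes were past that threshold in the 3 comparisons. Libraries of the 2 groups did not overlap for 6 members higher and 1 lower with thrombin (background 20.1% and 20.2%, together 40.3%), for 0 higher and 7 lower in PD03 against Thrombin (28.4% and 27.1%, together 55.5%), and for 1 higher and 6 lower in PD03 against Control (23.7% and 24.0%, together 47.8%). At an unadjusted p under 0.05, 7 were higher and 1 was lower with thrombin, and 0 were higher and 7 lower in PD03 against Thrombin. In PD03 against Control 2 were higher and 6 lower. The share of all tested genes at an unadjusted p was not computed, so unadjusted counts here and below have no background beside them. The 3 comparisons share libraries, so their counts are not independent of each other.

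The changes were small. A gene was called a differentially expressed gene (DEG) where the adjusted p was under 0.05 and the log2 fold change was beyond 0.58 in size. By that rule Mthfd2, Trib3 and Ddit4 were DEGs with thrombin (background 2.62% higher and 5.44% lower, together 8.06%), Psat1, Shmt2 and Ddit4 were DEGs with PD03 against Thrombin (background 9.61% higher and 6.31% lower, together 15.9%), and no member was a DEG in PD03 against Control by edgeR, DESeq2 or limma voom (background 4.90% higher and 4.07% lower, together 8.97%). For that last comparison, 7 of the 10 members had an adjusted p under 0.05 without the fold threshold, and 3 were DEGs when libraries were scaled by their totals. The median log2 fold change of the members was 0.34 with thrombin, -0.46 with PD03 against Thrombin and -0.27 with PD03 against Control, beside medians over all tested genes of -0.0060, 0.011 and -0.0039. Library totals moved the median of all genes to -0.12 in PD03 against Control and to -0.088 in PD03 against Thrombin. FPKM values with 1 and 0.1 added moved it to -0.089 and -0.12, and to -0.065 and -0.085, in the same comparisons. Relative to these shifts the directions of the members called there were as given. Values of single genes given below with library totals or on FPKM include the shift. The DEG count with thrombin rested on single libraries, and it was 0 without Control replicate 2 and 1 without Thrombin replicate 2.

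In bulk RNA, fewer cells of a type and less RNA per cell cannot be told apart. The summed level of 6 myeloid marker genes moved in the same direction as the members' share of counts. It was 20.3 to 23.4 CPM in Control, 28.8 to 32.4 CPM in Thrombin and 17.2 to 19.1 CPM in PD03. Nearly all of it was Cd14, with 249 to 562 counts per library. Ptprc, which marks all leukocytes, had 0 to 6 counts and Adgre1 0 to 8. Only 2 of the 6 genes were abundant enough to be tested, and they went opposite ways with PD03. Their log2 fold changes were -0.91 (fell) and 0.71 (no call) in PD03 against Thrombin. In PD03 against Control they were -0.38 (fell) and 1.47 (rose). With thrombin they were 0.52 and 0.76, and 1 of them rose. Summed CPM of 4 chondrocyte markers were 87.0 to 96.2 in Control, 53.9 to 60.4 in Thrombin and 72.7 to 79.4 in PD03. These 4 genes did not move together. With thrombin 1 rose and 1 fell, beside 14.1% and 14.6% of all tested genes. In PD03 against Control the sum was lower, but 3 of the 4 rose and 1 fell (2 and 1 by DESeq2). The shares of all tested genes there were 19.7% and 20.2%. Endothelial markers (4 genes) summed to 6.69 to 7.77, 6.36 to 8.51 and 11.1 to 12.6 CPM in the same order of groups. Of 4 skeletal muscle markers the sums were 5.75 to 7.26, 3.81 to 4.22 and 4.41 to 5.70 CPM, with Ckm at 0 to 3 counts, and 3 adipocyte markers and the erythroid gene Alas2 stayed at or below 1.45 CPM. The part of these marker changes in the results was not tested.

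**Figure D1:**
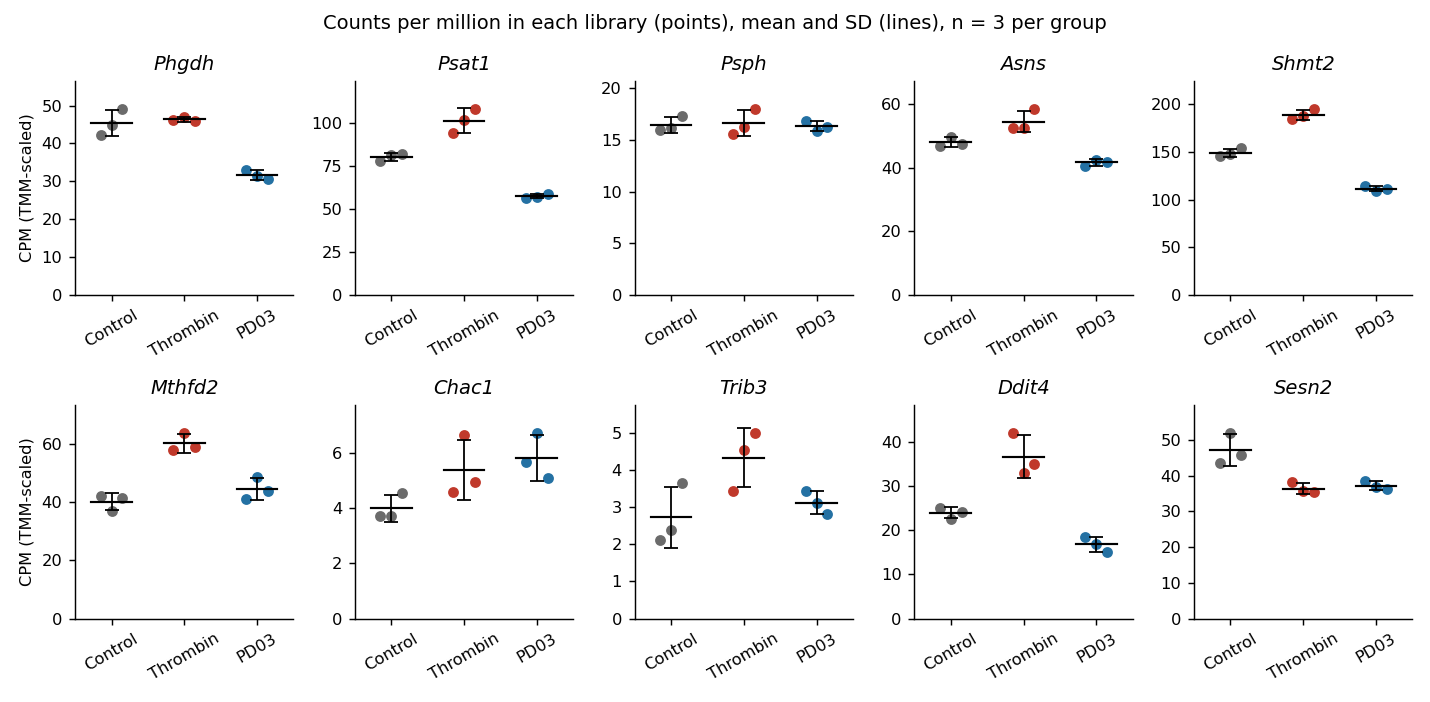
Level of each of the 10 genes in every library, in CPM (counts per 1e6 counts after TMM scaling), with a panel for each gene, the 3 groups on the horizontal axis, points for libraries and bars for the group mean and SD. Shmt2 reaches 184 to 195 CPM in the Thrombin libraries against 109 to 114 CPM in the PD03 libraries, whereas the Psph libraries of the 3 groups overlap.

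The serine synthesis genes did not move as a block. Phgdh (ENSRNOG00000019328), the first enzyme of the pathway and the one that commits carbon to serine, had 42.2, 45.0 and 49.1 CPM in the 3 Control libraries, 46.1, 47.1 and 45.9 CPM in the 3 Thrombin libraries and 33.1, 31.5 and 30.5 CPM in the 3 PD03 libraries. The Control and Thrombin libraries overlapped, and every PD03 library was lower than all 6 of them. The thrombin log2 fold change was 0.03 (95% interval -0.10 to 0.16, adjusted p = 0.76), and Phgdh fell with PD03 by a log2 fold change of -0.55 (SE 0.07, adjusted p = 2.7e-09) against Thrombin and -0.52 (SE 0.07, adjusted p = 2.1e-08) against Control.

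Psat1 (ENSRNOG00000013971), the aminotransferase of the second step, changed with both agents. Its level was 77.9, 81.8 and 82.2 CPM in the 3 Control libraries, 94.3, 102 and 109 CPM in the 3 Thrombin libraries and 56.4, 57.3 and 58.9 CPM in the 3 PD03 libraries. The 3 groups were fully separated, with Thrombin highest and PD03 lowest. Group means were 80.7 ± 2.35, 102 ± 7.15 and 57.5 ± 1.27 CPM (SD, n = 3 each), and the log2 fold changes were 0.34 (SE 0.05, adjusted p = 1.6e-06) with thrombin, -0.82 (SE 0.05, adjusted p = 7.4e-17) with PD03 against Thrombin and -0.49 (SE 0.05, adjusted p = 8.5e-10) with PD03 against Control. Psat1 therefore stood at 0.565 times its Thrombin level in the PD03 group.

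Psph (ENSRNOG00000000925), the phosphatase that releases free serine, showed no detectable difference in any comparison. Its libraries held 15.9, 16.2 and 17.4 CPM in the 3 Control libraries, 15.6, 16.2 and 18.0 CPM in the 3 Thrombin libraries and 16.9, 15.9 and 16.3 CPM in the 3 PD03 libraries. All 3 groups overlapped. The log2 fold changes were 0.01 (95% interval -0.18 to 0.20, adjusted p = 0.95) with thrombin and -0.02 (95% interval -0.21 to 0.17, adjusted p = 0.86) with PD03 against Thrombin. A test of any difference among the 3 groups gave an adjusted p of 0.98, beside 56.0% of all tested genes that passed that test.

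Asns (ENSRNOG00000007546), which makes asparagine and is among the most used readouts of ATF4 activity, moved in the same directions as Psat1 but by less. The values were 47.1, 49.9 and 47.6 CPM in the 3 Control libraries, 52.5, 52.7 and 58.6 CPM in the 3 Thrombin libraries and 40.5, 42.6 and 42.0 CPM in the 3 PD03 libraries. Control, Thrombin and PD03 libraries did not overlap, although the gap between the highest Control library and the lowest Thrombin library was small. The log2 fold changes were 0.18 (SE 0.06, adjusted p = 0.019) with thrombin, -0.39 (SE 0.06, adjusted p = 7.2e-07) with PD03 against Thrombin and -0.21 (SE 0.06, adjusted p = 0.0057) with PD03 against Control. The thrombin call was lost without Thrombin replicate 3 (adjusted p = 0.17), Control replicate 1 (0.075) or Control replicate 3 (0.055), whereas the call with PD03 against Thrombin held without each library (highest adjusted p = 6.1e-05).

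The mitochondrial one-carbon enzymes rose with thrombin and fell with PD03 against Thrombin. Shmt2 (ENSRNOG00000008106), which splits serine into glycine and a one-carbon unit, was the most abundant member. It had 146, 148 and 154 CPM in the 3 Control libraries, 184, 187 and 195 CPM in the 3 Thrombin libraries and 114, 109 and 111 CPM in the 3 PD03 libraries. The groups were fully separated and the spread within each was narrow, with means of 149 ± 4.10, 189 ± 5.72 and 111 ± 2.50 CPM (SD, n = 3 each). Shmt2 changed by a log2 fold change of 0.34 (SE 0.04, adjusted p = 9.4e-09) with thrombin, -0.76 (SE 0.04, adjusted p = 4.4e-19) with PD03 against Thrombin and -0.42 (SE 0.04, adjusted p = 7.4e-11) with PD03 against Control.

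Mthfd2 (ENSRNOG00000010833), which oxidises the one-carbon unit in the next step, differed from Shmt2 in where the PD03 group lay. Its libraries held 42.0, 36.8 and 41.4 CPM in the 3 Control libraries, 57.9, 63.8 and 58.7 CPM in the 3 Thrombin libraries and 41.0, 48.4 and 43.7 CPM in the 3 PD03 libraries. The Thrombin libraries stood above all others, and the Control and PD03 libraries overlapped. The log2 fold change with thrombin was 0.585 (SE 0.07, adjusted p = 1.1e-09), which is just beyond the DEG threshold and was under it without Control replicate 2 (0.53) or Thrombin replicate 2 (0.54). It was also under it with library totals (0.567), with a mean count of at least 50 (0.579) and on FPKM with 1 or 0.1 added (0.546 and 0.568). Mthfd2 fell by a log2 fold change of -0.44 (SE 0.06, adjusted p = 2.0e-07) with PD03 against Thrombin, to a level whose difference from Control was 0.14 (95% interval 0.0059 to 0.28, adjusted p = 0.091). Without PD03 replicate 1 that difference was 0.20 (adjusted p = 0.022).

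**Figure D2:**
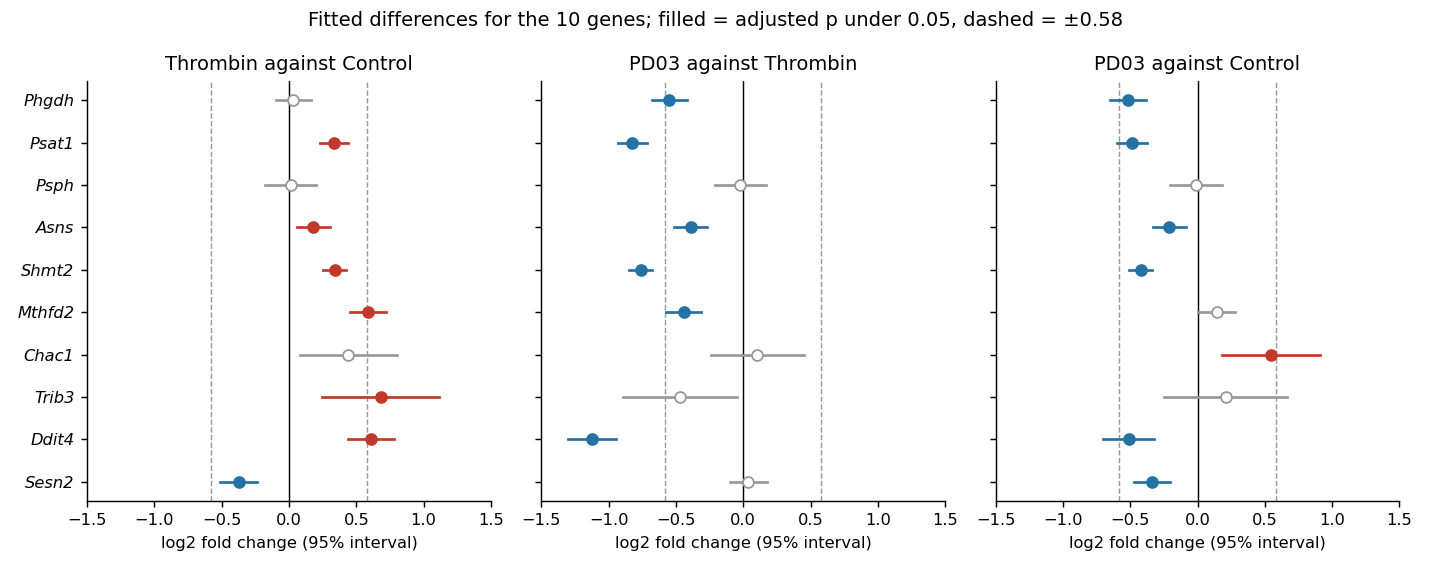
Log2 fold change of each of the 10 genes (horizontal axis) with its 95% interval, in a panel for each comparison (Thrombin against Control, PD03 against Thrombin, PD03 against Control). Ddit4 has the lowest value in PD03 against Thrombin at -1.12, and Sesn2 lies at -0.37 in Thrombin against Control.

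The 4 stress targets did not move together. Ddit4 (ENSRNOG00000057078), which encodes REDD1, an inhibitor of mTORC1, had the largest change of the set. It was measured at 25.1, 22.6 and 24.2 CPM in the 3 Control libraries, 42.1, 33.0 and 34.9 CPM in the 3 Thrombin libraries and 18.4, 16.9 and 15.0 CPM in the 3 PD03 libraries. The Thrombin libraries were above and the PD03 libraries below all Control libraries. Ddit4 rose with thrombin by a log2 fold change of 0.61 (SE 0.08, adjusted p = 1.8e-07), fell with PD03 against Thrombin by -1.12 (SE 0.09, adjusted p = 3.0e-14) and fell with PD03 against Control by -0.51 (SE 0.09, adjusted p = 1.7e-05). Without Thrombin replicate 1, its highest library, the thrombin change was 0.50 (adjusted p = 1.3e-05), which is under the DEG threshold.

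Sesn2 (ENSRNOG00000042785), a leucine sensor that restrains mTORC1 through the GATOR proteins, moved the other way with thrombin. Its values were 43.6, 52.1 and 45.9 CPM in the 3 Control libraries, 38.2, 35.6 and 35.3 CPM in the 3 Thrombin libraries and 38.6, 36.9 and 36.4 CPM in the 3 PD03 libraries. All Control libraries lay above all others, and the Thrombin and PD03 libraries overlapped. Sesn2 fell by a log2 fold change of -0.37 (SE 0.07, adjusted p = 2.0e-05) with thrombin and by -0.34 (SE 0.07, adjusted p = 6.2e-05) with PD03 against Control, while PD03 differed from Thrombin by 0.04 (95% interval -0.10 to 0.18, adjusted p = 0.69). The PD03 libraries thus lay at about the Thrombin level, below Control.

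Chac1 and Trib3, the members with a match to the element shown above, were low. Chac1 (ENSRNOG00000014387), which degrades glutathione, had 59 to 121 counts per library. It stood at 3.70, 3.73 and 4.55 CPM in the 3 Control libraries, 4.58, 6.64 and 4.96 CPM in the 3 Thrombin libraries and 5.67, 6.74 and 5.08 CPM in the 3 PD03 libraries. Every Thrombin and PD03 library was above every Control library, but by a small margin for Thrombin replicate 1. The thrombin log2 fold change was 0.44 (95% interval 0.08 to 0.80, adjusted p = 0.061), which passed the threshold without Control replicate 3 (adjusted p = 0.043), without Thrombin replicate 1 (adjusted p = 0.028) or without the filter on low counts (adjusted p = 0.047), and Chac1 rose with PD03 against Control by 0.55 (SE 0.18, adjusted p = 0.013). That call was lost without PD03 replicate 2 (adjusted p = 0.086) and lay just under the threshold without Control replicate 1 or Control replicate 2 (adjusted p = 0.05 for each). Between PD03 and Thrombin the difference was 0.10 (95% interval -0.24 to 0.45, adjusted p = 0.64), so Chac1 was not detectably lower where Psat1, Asns and Shmt2 fell.

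Trib3 (ENSRNOG00000007319), a pseudokinase that binds ATF4 and dampens its activity, had 38 to 86 counts per library. Its level was 2.12, 2.40 and 3.66 CPM in the 3 Control libraries, 3.45, 4.55 and 5.01 CPM in the 3 Thrombin libraries and 3.44, 3.11 and 2.82 CPM in the 3 PD03 libraries. The Thrombin and Control libraries overlapped, since Control replicate 3 was above Thrombin replicate 1, and the Thrombin libraries were all above the PD03 libraries. Trib3 rose with thrombin by a log2 fold change of 0.68 (SE 0.22, adjusted p = 0.014), and the difference of PD03 from Thrombin was -0.47 (95% interval -0.90 to -0.05, adjusted p = 0.06). The thrombin call was lost without Control replicate 1 (adjusted p = 0.10), Control replicate 2 (0.065), Thrombin replicate 2 (0.052) or Thrombin replicate 3 (0.095). The difference of PD03 from Thrombin passed the threshold without Thrombin replicate 1 (adjusted p = 0.021) or Control replicate 3 (adjusted p = 0.047), and likewise with library totals (-0.57, adjusted p = 0.021), on FPKM with 1 or 0.1 added (adjusted p = 0.028 and 0.035), without the filter on low counts (adjusted p = 0.044) and with only these 2 groups in the fit (adjusted p = 0.042).

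Levels were compared between genes on the deposited FPKM values, which are divided by gene length. In the Control group the order was Shmt2 at 66.9 FPKM, Psat1 at 38.0, Phgdh at 24.8, Asns at 20.2, Mthfd2 at 19.3, Ddit4 at 14.2, Sesn2 at 13.8, Psph at 11.2, Chac1 at 2.62 and Trib3 at 1.52 FPKM, each a mean of 3 libraries. Neighbouring genes in this order did not overlap between libraries except Asns with Mthfd2 and Ddit4 with Sesn2. In the Thrombin group Mthfd2 stood in place 3 at 28.6 FPKM, above Phgdh at 25.0 FPKM without overlap, and Sesn2 stood in place 8 at 10.5 FPKM, where its libraries overlapped those of Psph. In the PD03 group Ddit4 stood in place 8 at 9.20 FPKM, and Psph, Sesn2 and Ddit4 lay so close that neighbours overlapped. Psph was thus the lowest of the serine enzymes throughout. Its libraries held 10.9 to 11.7 FPKM in Control and 9.95 to 10.5 FPKM in PD03, values that include the shift given above. Shmt2, Psat1, Chac1 and Trib3 kept places 1, 2, 9 and 10 in every group.

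Across the 9 libraries, Psat1, Shmt2, Asns and Ddit4 had similar patterns. Pearson's r of log2 CPM was 0.992 for Psat1 with Shmt2, 0.976 for Psat1 with Asns, 0.955 for Shmt2 with Ddit4 and 0.903 for Phgdh with Psat1. Sesn2 ran opposite to Mthfd2 and Chac1 (r = -0.75 for each), and Psph had r between -0.080 and 0.59 with the other members. These values describe 9 libraries in 3 groups and follow mainly from the differences between groups. Over 12359 candidate genes that are not members, the patterns nearest to Shmt2 were Cdc6 (r = 0.999), which loads the replication helicase, Tbx3 (0.997) and the valyl-tRNA synthetase gene Vars1 (0.996). The nearest to Psat1 were Tpm3 (0.994), Tbx3 (0.994) and the nuclear pore gene Nup85 (0.993), and the nearest to Ddit4 were Aimp2 (0.993), a scaffold of the tRNA synthetase complex, Slc25a48 (0.988) and Rcc1 (0.984). Sesn2 was nearest to Col5a3 (0.973), Pde4a (0.970) and Nod1 (0.954).

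The closest relatives of the members differed in direction, some from the member and some among themselves. Sesn1 and Sesn3 fell with thrombin, as Sesn2 did, but rose with PD03 against Thrombin. Sesn1 had 23.8, 22.9 and 22.7 CPM in Control, 18.6, 15.0 and 17.6 CPM in Thrombin and 22.4, 21.4 and 21.6 CPM in PD03, and changed by a log2 fold change of -0.44 (adjusted p = 9.0e-05) with thrombin and 0.35 (adjusted p = 7.9e-04) with PD03 against Thrombin. Sesn3 had 26.0, 22.3 and 22.7 CPM in Control, 15.8, 15.8 and 17.0 CPM in Thrombin and 30.4, 31.7 and 34.7 CPM in PD03, with log2 fold changes of -0.55 (adjusted p = 2.2e-06) and 0.99 (adjusted p = 2.3e-13). The Sesn3 libraries of the 3 groups were fully separated, with PD03 highest. These directions were the same under each of the scalings tried.

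Ddit4l, the paralogue of Ddit4 and likewise an inhibitor of mTORC1, moved opposite to it. It was a low gene with 22 to 39 counts in the Control libraries, 2 to 9 in the Thrombin libraries and 43 to 59 in the PD03 libraries, and its groups did not overlap. The log2 fold changes were -2.33 (SE 0.39, adjusted p = 6.2e-06) with thrombin and 2.94 (SE 0.36, adjusted p = 5.7e-09) with PD03 against Thrombin, against 0.61 and -1.12 for Ddit4. Mthfd2l, a mitochondrial relative of Mthfd2, had 2.83, 2.27 and 2.59 CPM in Control, 4.52, 4.83 and 4.43 CPM in Thrombin and 2.12, 2.33 and 2.39 CPM in PD03. It rose with thrombin by 0.84 (adjusted p = 0.0011) and fell with PD03 against Thrombin by -1.01 (adjusted p = 5.3e-05), as Mthfd2 did.

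Shmt1, the cytosolic form of Shmt2, was measured at 22.4, 19.6 and 20.1 CPM in Control, 15.3, 19.1 and 20.1 CPM in Thrombin and 8.32, 10.0 and 9.24 CPM in PD03. Its thrombin log2 fold change was -0.19 (95% interval -0.39 to 0.0073, adjusted p = 0.15), and it fell with PD03 against Thrombin by -0.99 (SE 0.11, adjusted p = 4.2e-10), beside -0.76 for Shmt2. Trib1 fell with PD03 against Thrombin by -0.55 (adjusted p = 9.3e-08) with a thrombin value of -0.13 (adjusted p = 0.21). Trib2 fell with thrombin by -0.53 (adjusted p = 1.2e-06) with a PD03 value of -0.14 (adjusted p = 0.16), which was past the threshold with library totals (-0.24, adjusted p = 0.016), on FPKM (adjusted p = 0.030 and 0.026) and without PD03 replicate 2 (adjusted p = 0.049). Chac2 had log2 fold changes of 0.11 (95% interval -0.24 to 0.46, adjusted p = 0.7) and -0.04 (95% interval -0.39 to 0.30, adjusted p = 0.85). Over the 8 paralogues, 1 rose and 4 fell with thrombin (median -0.32), beside 14.1% and 14.6% of all tested genes. With PD03 against Thrombin 3 rose and 3 fell (median -0.094), beside 25.3% and 24.5% of all tested genes.

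**Figure D3:**
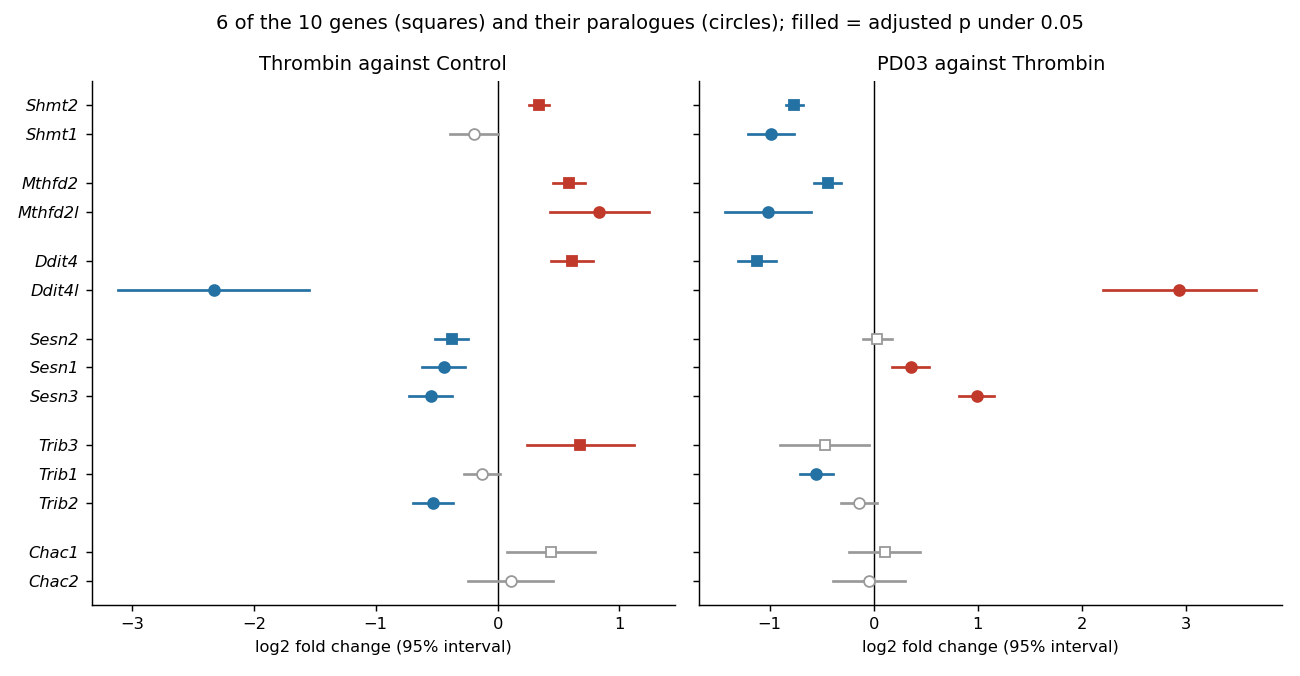
Log2 fold change with 95% interval of the members that have a measured paralogue and of those paralogues, for Thrombin against Control and PD03 against Thrombin. Ddit4 lies at 0.61 and -1.12 in these comparisons and its paralogue Ddit4l at -2.33 and 2.94.

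The transcript of Atf4 itself (ENSRNOG00000017801) changed little. Its level was 192, 198 and 192 CPM in the 3 Control libraries, 209, 228 and 222 CPM in the 3 Thrombin libraries and 203, 218 and 221 CPM in the 3 PD03 libraries. The Thrombin libraries were all above the Control libraries, and the PD03 libraries overlapped the Thrombin libraries. Atf4 rose with thrombin by a log2 fold change of 0.18 (SE 0.04, adjusted p = 6.1e-04), and the difference of PD03 from Thrombin was -0.04 (95% interval -0.12 to 0.04, adjusted p = 0.44), which became -0.14 (adjusted p = 0.0037) when libraries were scaled by their totals. In PD03 against Control Atf4 rose by 0.14 by edgeR (adjusted p = 0.0053). That call was lost with library totals (0.025, adjusted p = 0.65) and on FPKM values. ATF4 is controlled largely at translation and its protein was not measured. Ddit3, which encodes the stress factor CHOP, had 5.49, 4.80 and 5.18 CPM in Control, 5.12, 5.43 and 6.00 CPM in Thrombin and 5.93, 4.79 and 5.33 CPM in PD03, and its log2 fold changes were 0.09 (95% interval -0.23 to 0.42, adjusted p = 0.72) with thrombin and -0.04 (95% interval -0.36 to 0.28, adjusted p = 0.86) with PD03 against Thrombin.

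The 4 kinases of eIF2α were detected in every library. Eif2ak1, the haem-regulated kinase, changed by -0.18 (adjusted p = 0.011) with thrombin and 0.32 (adjusted p = 2.9e-06) with PD03 against Thrombin. Eif2ak2, the kinase that senses double-stranded RNA, changed by -0.41 (adjusted p = 2.3e-05) and 0.38 (adjusted p = 2.7e-05). Both thus fell with thrombin and rose with PD03, but the thrombin call of Eif2ak1 was lost without Control replicate 2 (adjusted p = 0.071) or Thrombin replicate 2 (adjusted p = 0.061). Eif2ak3, the kinase of the endoplasmic reticulum, had log2 fold changes of 0.12 (adjusted p = 0.27) and 0.14 (adjusted p = 0.13), and Eif2ak4, the amino acid sensor GCN2, of -0.02 (adjusted p = 0.88) and -0.19 (adjusted p = 0.024). Without Thrombin replicate 1 the Eif2ak4 value in PD03 against Thrombin was -0.15 (adjusted p = 0.11) and Eif2ak3 passed the threshold (adjusted p = 0.011). The Eif2ak4 call was also lost without PD03 replicate 1 (adjusted p = 0.056) or PD03 replicate 3 (adjusted p = 0.053), and Eif2ak3 passed with thrombin without Control replicate 1 (adjusted p = 0.035).

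In the ATF4 circuit, 2 of 9 tested genes rose (Atf4 and Cebpb) and 1 fell (Atf3) with thrombin. Of all tested genes 14.1% rose and 14.6% fell. In PD03 against Thrombin, 1 rose (Atf3) and 2 fell (Cebpb and Eif2s1), beside 25.3% and 24.5% of all tested genes. With library totals or on FPKM values 6 of the 9 fell. Atf3, an early stress-response factor, had 3.43, 2.72 and 3.29 CPM in Control, 1.13, 1.92 and 2.86 CPM in Thrombin and 4.61, 6.02 and 6.55 CPM in PD03, and its log2 fold changes were -0.67 (SE 0.25, adjusted p = 0.036) and 1.53 (SE 0.23, adjusted p = 3.1e-07). The Control and Thrombin libraries of Atf3 overlapped, and its thrombin values with libraries left out ranged from -1.03 to -0.40, with adjusted p up to 0.25 over all settings. Cebpb, a dimer partner of ATF4, had 468, 465 and 463 CPM in Control, 572, 567 and 513 CPM in Thrombin and 398, 356 and 346 CPM in PD03. It rose with thrombin by a log2 fold change of 0.24 (SE 0.04, adjusted p = 1.0e-05) and fell with PD03 by -0.58 (SE 0.04, adjusted p = 1.4e-15), with all 3 groups separated.

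The genes that import amino acids were read from a list of 10 transporters. With thrombin, 6 rose (Slc7a5, Slc7a1, Slc3a2, Slc38a1, Slc1a5 and Slc6a9) and none fell by edgeR, DESeq2 or limma voom. Of all tested genes 14.1% rose and 14.6% fell. At an unadjusted p under 0.05, 7 transporters were higher and 0 lower (median log2 fold change 0.32). With PD03 against Thrombin 4 fell and 2 rose (median -0.29), beside 24.5% and 25.3% of all tested genes. Slc38a1, a carrier of neutral amino acids, had 12.2, 13.5 and 13.5 CPM in Control, 18.9, 24.2 and 23.6 CPM in Thrombin and 20.2, 19.6 and 19.4 CPM in PD03, with log2 fold changes of 0.77 (adjusted p = 2.1e-08) and -0.17 (adjusted p = 0.12). The second value was past the threshold with library totals (-0.27, adjusted p = 0.013), on FPKM (adjusted p = 0.029 and 0.027) and without Thrombin replicate 1 (adjusted p = 0.012). Slc7a1, the main carrier of arginine and lysine, rose by 0.70 (adjusted p = 5.6e-10) and fell with PD03 by -0.63 (adjusted p = 2.9e-09), to 30.9 CPM beside 29.4 CPM in Control. Slc1a5, a glutamine carrier, rose by 0.30 (adjusted p = 2.6e-05) and fell by -0.80 (adjusted p = 5.7e-16), and Slc6a9, a glycine carrier, rose by 0.47 (adjusted p = 1.9e-05) and fell by -0.71 (adjusted p = 2.2e-09). Slc1a4, a carrier of alanine and serine, went the other way with PD03: it had 116, 117 and 117 CPM in Control, 112, 109.9 and 111 CPM in Thrombin and 179, 177 and 169.8 CPM in PD03 and rose by 0.66 (adjusted p = 3.7e-17). Slc7a11, the cystine carrier, had log2 fold changes of -0.07 (95% interval -0.70 to 0.55, adjusted p = 0.89) and 0.16 (95% interval -0.46 to 0.78, adjusted p = 0.69) at 1 to 3 CPM.

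Among 13 tested genes of proline, cysteine and other amino acid synthesis, 7 rose and none fell with thrombin by edgeR, DESeq2 or limma voom. At an unadjusted p under 0.05, 7 were higher and 1 lower. With PD03 against Thrombin 3 rose and 7 fell (1 rose on FPKM values). The shares of all tested genes that rose and fell were 14.1% and 14.6%, and 25.3% and 24.5%, in these comparisons. Got2, the mitochondrial aspartate aminotransferase, had 195, 219 and 209 CPM in Control, 279, 268 and 284 CPM in Thrombin and 159, 146 and 144 CPM in PD03, and its log2 fold changes were 0.42 (adjusted p = 1.4e-10) and -0.89 (adjusted p = 8.2e-21). Cth, which makes cysteine, rose by 0.60 (adjusted p = 5.5e-04) and fell by -0.76 (adjusted p = 8.4e-06). Both thus shared the directions of Psat1 and Shmt2. Pycr1, an enzyme of proline synthesis, rose with PD03 against Thrombin by 0.28 (adjusted p = 0.0015), and that call was lost on FPKM values (adjusted p = 0.13).

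Of 15 other folate and one-carbon genes, 2 rose and 2 fell with thrombin, beside 14.1% and 14.6% of all tested genes. With PD03 against Thrombin 4 rose and 8 fell, beside 25.3% and 24.5% of all tested genes. Mthfd1l, which releases formate from mitochondria downstream of Mthfd2, had 38.1, 39.5 and 38.0 CPM in Control, 44.9, 51.1 and 46.2 CPM in Thrombin and 21.4, 24.0 and 18.5 CPM in PD03. Its log2 fold changes were 0.30 (SE 0.07, adjusted p = 9.4e-04) and -1.16 (SE 0.08, adjusted p = 8.2e-17), so that it fell below Control where Mthfd2 did not. Gldc, of the glycine cleavage system, was near 1 CPM or below and fell with PD03 by -1.34 (SE 0.43, adjusted p = 0.0087). Aldh1l1, which burns one-carbon units to carbon dioxide, moved opposite to Mthfd1l in both comparisons. It had 15.9, 15.5 and 15.9 CPM in Control, 8.74, 9.10 and 7.93 CPM in Thrombin and 17.7, 15.2 and 18.1 CPM in PD03. Its log2 fold changes were -0.87 (adjusted p = 1.2e-08) and 0.98 (adjusted p = 2.0e-10). Aldh1l2, its mitochondrial form, rose with PD03 against Thrombin by 0.63 (adjusted p = 6.9e-18).

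The 20 cytosolic aminoacyl-tRNA synthetases, which charge amino acids onto tRNA, fell almost together with PD03. In PD03 against Thrombin 19 of the 20 fell and none rose by edgeR, DESeq2 or limma voom (median log2 fold change -0.20). The counts were also 19 and 0 at an unadjusted p under 0.05. Of all tested genes 24.5% fell and 25.3% rose at the adjusted threshold. The exception among the 20 was Rars1 at 0.07 (adjusted p = 0.27), which was -0.03 with library totals and on FPKM. The count of 19 was the same under each of the 5 other scalings and units tried. The changes were small and 1 gene was a DEG, Vars1, with 191, 201 and 206 CPM in Control, 245, 248 and 247 CPM in Thrombin and 158, 155 and 152 CPM in PD03 and log2 fold changes of 0.31 (adjusted p = 2.0e-08) and -0.67 (adjusted p = 3.3e-18). With thrombin 6 of the 20 rose and none fell by edgeR (median 0.084), beside 14.1% and 14.6% of all tested genes. At an unadjusted p under 0.05, 9 were higher and 1 lower. At the adjusted threshold DESeq2 gave 5 and 0, limma voom 6 and 1, and library totals 4 and 1. Against Control, 11 of the 20 fell in PD03 and none rose by edgeR, DESeq2 or limma voom, beside 20.2% and 19.7% of all genes. At an unadjusted p under 0.05, 14 were lower and 0 higher. All 20 fell on FPKM values, where the median of all tested genes was itself lower (-0.089 with 1 and -0.12 with 0.1 added).

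Of 6 tested secreted factors and other ATF4 targets, 2 rose and 2 fell with thrombin, beside 14.1% and 14.6% of all tested genes. By DESeq2, with DESeq2 size factors and on FPKM values 1 fell. With PD03 against Thrombin 3 rose and 2 fell, beside 25.3% and 24.5% of all tested genes. Vldlr, a lipoprotein receptor, had 6.58, 6.88 and 6.63 CPM in Control, 9.58, 9.38 and 8.92 CPM in Thrombin and 24.5, 25.1 and 23.6 CPM in PD03. It rose at each step, by 0.47 (adjusted p = 0.0016) with thrombin and by 1.39 (adjusted p = 9.9e-16) with PD03 against Thrombin, and its groups did not overlap. Stc2, a secreted glycoprotein, had 86.1, 89.7 and 89.6 CPM in Control, 50.0, 44.0 and 44.2 CPM in Thrombin and 43.1, 41.9 and 43.0 CPM in PD03, and it fell with thrombin by -0.94 (adjusted p = 1.2e-17) with a PD03 value of -0.11 (adjusted p = 0.14). With library totals (-0.21, adjusted p = 0.0037) and on FPKM (adjusted p = 0.0081 and 0.0073) Stc2 was lower in PD03 than in Thrombin. The hormones Fgf21 and Gdf15 had 0 to 4 counts per library and were not tested.

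**Figure D4:**
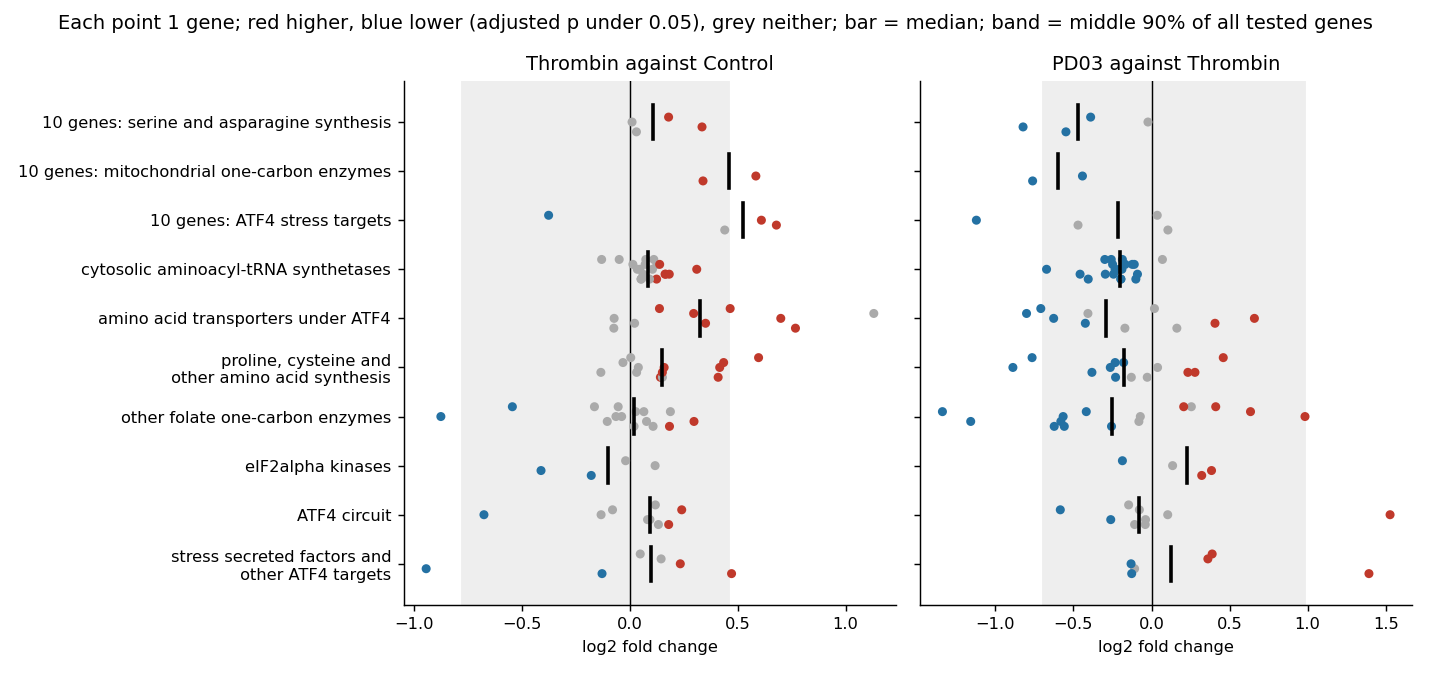
Log2 fold change of each tested gene in the members and in each list of related genes, for Thrombin against Control and PD03 against Thrombin, with a line at the median of each list. In PD03 against Thrombin the tRNA synthetases cluster around their median of -0.20, whereas the folate and transporter lists spread to both sides of 0.

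Over the 94 tested genes of all these lists and of the mTORC1 list, 28 rose and 14 fell with thrombin (29.8% and 14.9%, beside 14.1% and 14.6% of all tested genes). With PD03 against Thrombin 22 rose and 48 fell (23.4% and 51.1%, beside 25.3% and 24.5%), and with PD03 against Control 23 rose and 33 fell (24.5% and 35.1%, beside 19.7% and 20.2%). The lists were chosen with earlier results of these data known, and these shares are given as a description.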

How the data were processed

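Messenger RNA was sequenced in 9 libraries, 3 each from the Control, Thrombin and PD03 groups, and groups and replicate numbers were taken from the sample titles. The authors deposited a table of raw read counts per gene and of FPKM values per gene (reads scaled by gene length and library size) for each library. The submitters' processing notes name HISAT2, HTSeq 0.13.5 and the rat assembly mRatBN7.2, whereas the study's methods name fastp, featureCounts, DESeq2 and an older rat assembly, so the counter and the build behind the counts are uncertain. The annotation release and the strandedness are not stated in the sources used, so reads of antisense or overlapping genes may be shared. No molecular identifiers are described.

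Counts were tested with edgeR 4.0.16 (R 4.3.3; TMM scaling, filterByExpr with a minimum count of 10, quasi-likelihood F-test, all 9 libraries in 1 fit), and p-values were adjusted by Benjamini-Hochberg over 13256 genes. This replaced the DESeq2 test of the study as the main test, and DESeq2 1.42.0 and limma 3.58.1 were alternatives. A DEG had an adjusted p under 0.05 and a log2 fold change beyond 0.58 in size, and "rose" and "fell" mean an adjusted p under 0.05. CPM are counts per 1e6 counts after TMM scaling. FPKM values served to compare genes and, with 1 or 0.1 added, as alternatives tested with limma. The procedure was also run on simulated counts with the same spread for all genes. The planted changes were larger than most changes of the members, so that run does not bear on changes as small as theirs. The biological coefficient of variation was 4.28%. Same-group libraries differed by more than sampling noise (chi-square over its degrees of freedom 1.82 to 3.99), and 3 counts in a library correspond to 0.159 to 0.194 CPM. Intervals of fold changes have a level of 95%, and floors cover counting error only.

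The study describes 3 independent samples per group, but the labels do not say whether they came from separate animals or cultures, so p-values measure the spread between these samples, which may be technical. Libraries with the same replicate number showed no shared deviation, which does not settle whether they share a culture or batch. Members and gene lists were chosen with earlier results of these data known. The rule for named genes took all members, Atf4, Ddit3, the eIF2α kinases and the paralogues, and in each list the 3 largest changes among DEGs whose libraries did not overlap and whose higher group reached 1 CPM. Other genes of the lists (Slc7a11, Pycr1, Aldh1l2, Aldh18a1, Aars1, Rars1, Rptor, Flcn, Fgf21 and Gdf15) were named after their values were seen. For likeness of pattern, the 3 genes with the highest Pearson correlation were taken. Nupr1 and Ppp1r15a and 4 cell type markers had no row of that name and were not analysed here.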

Additional observations from a re-analysis of the deposited data

How the results depend on the processing

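With no fold threshold, over all scalings, filters, left-out libraries and tests except glmTreat, members with an adjusted p under 0.05 numbered 4 to 7 higher and 1 lower in Thrombin against Control (4 without Control replicate 1 or Thrombin replicate 3), 0 higher and 6 to 7 lower in PD03 against Thrombin, and 0 to 2 higher and 6 lower in PD03 against Control. Counts of DEGs moved more, with several members near the fold threshold. Among the members they were 3 higher and 0 lower in Thrombin against Control, 0 and 3 in PD03 against Thrombin, and 0 and 0 in PD03 against Control. Without a fold threshold these became 6 and 1, 0 and 6, and 1 and 6. At a log2 fold change above 1 the first comparison had 0 and the second 1, and a test against the threshold itself (glmTreat) or FPKM with 1 added gave 0 in the first. In PD03 against Control 3 members were lower with library totals and with either FPKM setting. With each library left out, members higher in Thrombin against Control ranged from 0 to 3 (0 without Control replicate 2, 1 without Thrombin replicate 2), members lower in PD03 against Thrombin from 3 to 4, and members higher or lower in PD03 against Control from 0 to 1 (1 higher without Control replicate 3 or PD03 replicate 3, 1 lower without PD03 replicate 1). For the wider lists, DEGs were 4 higher and 5 lower, 8 and 13, and 7 and 8 in the same order of comparisons. Without a fold threshold they were 28 and 14, 22 and 48, and 23 and 33, and above 1 they were 0 and 1, 4 and 3, and 2 and 3. The glmTreat test gave 0 higher in the first, 5 lower in the second, and 2 higher and 3 lower in the third. In the third, 3 were higher with library totals, 1 with 1 and 4 with 0.1 added to FPKM, and 3 to 6 with libraries left out (3 without PD03 replicate 1), and 1 was higher in the first with 1 added to FPKM. Over all tested genes, DEGs were 347 higher and 721 lower, 1274 and 836, and 649 and 540. Without a fold threshold they were 1867 and 1941, 3358 and 3250, and 2616 and 2673, above 1 they were 133 and 372, 626 and 309, and 281 and 238, and with glmTreat 147 and 313, 671 and 380, and 286 and 213. FPKM with 1 added gave 192 and 351 in the first, 537 higher in the second and 245 higher in the third, a mean count of at least 50 gave 480 lower in the first, and 908 and 865 were lower in the third with library totals and with 0.1 added to FPKM. The cause of these shifts was not tested.

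The signs that turned among the members and the genes below belonged to values without a call. Outside them, Aldh18a1 in PD03 against Control went from 0.12 (adjusted p = 0.022) to -0.00080 with library totals and -0.0015 on FPKM, and Aars1 from 0.02 to -0.091 (adjusted p = 0.043) with library totals. Psph in Thrombin against Control became -0.0060 with library totals, -0.0075 and -0.0083 on FPKM, and -0.049 to 0.058 with libraries left out. Sesn2 in PD03 against Thrombin became -0.062, -0.058 and -0.063 with the same settings. With libraries left out, the log2 fold changes in Thrombin against Control ran from -0.020 to 0.096 for Phgdh, from -0.065 to 0.026 for Eif2ak4, from -0.027 to 0.27 for Chac2 and from -0.064 to 0.55 for Gldc. In PD03 against Thrombin they ran from -0.077 to 0.038 for Psph, from -0.016 to 0.27 for Chac1, from -0.12 to 0.025 for Ddit3 and from -0.21 to 0.083 for Chac2, and in PD03 against Control from -0.037 to 0.020 for Psph.

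With the replicate number as a block, members with an adjusted p under 0.05 were 6 higher and 1 lower, 0 and 6, and 1 and 6, as without it, and DEGs over all genes numbered 343 and 724, 1264 and 839, and 649 and 538. Deviations of libraries with the same number from their group means correlated at -0.046 to 0.052, so no deviation shared by number was seen. This does not settle whether libraries with the same number share a culture or batch. Within every group, pairs with replicate 1 differed more (chi-square over its degrees of freedom 3.02 to 3.99) than replicates 2 and 3 did (1.82 to 2.13). Depth limits Chac1 (59 to 121 counts per library) and Trib3 (38 to 86), which had the largest standard errors of the 10 members, and Bglap, Ibsp, Fgf21 and Gdf15 were too low to test.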

Other observations

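The regulators of mTORC1, the growth kinase that Ddit4 and Sesn2 restrain, were read from a list of 9 genes. With thrombin 2 rose and 3 fell (median log2 fold change -0.083), beside 14.1% and 14.6% of all tested genes. With PD03 against Thrombin 4 rose and 2 fell (median 0.16), beside 25.3% and 24.5% of all tested genes. These counts moved with the settings: with thrombin DESeq2 gave 1 higher and 1 lower and library totals 1 and 4, and with PD03 against Thrombin library totals gave 2 and 2 (median 0.064). Deptor, a direct inhibitor of mTOR, had 20.9, 17.5 and 17.5 CPM in Control, 8.33, 8.94 and 11.1 CPM in Thrombin and 30.7, 27.2 and 27.5 CPM in PD03. Its groups did not overlap, and by edgeR with Benjamini-Hochberg adjustment it fell with thrombin by a log2 fold change of -0.98 (SE 0.11, adjusted p = 6.0e-10) and rose with PD03 against Thrombin by 1.59 (SE 0.10, adjusted p = 4.8e-17). Rptor, the scaffold of the complex, rose with thrombin by 0.30 (adjusted p = 1.3e-04) and fell with PD03 by -0.22 (adjusted p = 0.0019). Flcn, which acts on the Rag GTPases, fell by -0.25 (adjusted p = 0.024) and rose by 0.32 (adjusted p = 0.0016).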
